A study of Homo sapiens with 18 samples.

Results

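Adenylate kinases are small enzymes that move a phosphate group between adenine nucleotides and so keep AMP, ADP and ATP in balance. AMP is the form that signals low energy to the cell, because it activates the AMP-activated protein kinase. The isoforms differ mainly in where they work. AK1 is the main cytosolic enzyme, AK3 works in the mitochondrial matrix and prefers GTP as phosphate donor, and AK4 is the matrix enzyme closest to AK3 in sequence and has long been known as a gene induced by low oxygen. AK5 is a cytosolic enzyme known best from brain, and AK7 and AK8 are known best from tissues with motile cilia. These 6 genes, AK1, AK3, AK4, AK5, AK7 and AK8, were taken by their symbols from the 23106 genes of the count files, and each of them was present there.

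The genes were measured by RNA-seq of polyA+ RNA in 18 samples of 3 human cell lines, in normoxia and in hypoxia, with 3 replicates in each of the 6 groups. HKC-8 is a line of kidney proximal tubule cells, RCC4 is a kidney cancer line whose samples here carry a stably transfected wild-type VHL gene, and HepG2 is a hepatocellular cancer line. The parental RCC4 line lacks functional VHL, the protein that marks HIF-α subunits for destruction in normoxia, so that both RCC4 groups depend on the transfected copy. Hypoxia was 0.5% oxygen for 16 h in HKC-8 and HepG2 cells according to the characteristics in the labels, although 0.1% stands in the titles of hypoxic HKC-8 samples. For hypoxic RCC4 cells the labels give 1% for 24 h, whereas the text of the study gives the shorter and deeper exposure for all lines. The normoxic HKC-8 samples are titled with 21% oxygen, and no figure is given for the other normoxic samples. Nothing in the labels says whether replicates came from separate cultures, so that the p-values measure only the spread between these samples.

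Between 40915980 and 97984260 reads were counted on genes in a sample, and the HKC-8 libraries were the deepest, so that cell line, depth and hypoxic exposure cannot be told apart in comparisons between lines. A count of 3, the limit that a count of 0 allows, stood at 0.0306 to 0.0733 counts per 1000000 counted reads (CPM), which covers counting error only. The lines were checked against markers. All 8 liver genes of a fixed list were above 1 CPM in every HepG2 sample (summed level 33514 to 42087 CPM), against summed levels of 0.242 to 0.552 CPM in HKC-8 and 8.83 to 11.2 CPM in RCC4 cells. Of 8 renal epithelial genes, 3 passed that level in every HKC-8 sample, 6 in RCC4 and 4 in HepG2 cells. PAX8, a transcription factor of the kidney lineage, stood at 165 ± 23.9 CPM in normoxic HKC-8 and at 132 ± 4.81 CPM in normoxic RCC4 cells (SD, n = 3). Among 5 leukocyte genes, LYZ was high in HepG2 cells (2415 ± 59.0 CPM in normoxia), while PTPRC, which defines leukocytes, had 0 counts in all HepG2 and RCC4 samples and at most 5 in an HKC-8 sample. The summed level of 5 fibroblast and endothelial genes was 7.13 to 10.3 CPM in HKC-8, 1.86 to 2.69 CPM in RCC4 and 6.99 to 12.3 CPM in HepG2 cells. In bulk samples such as these, fewer cells that express a gene and less RNA of it per cell cannot be told apart.

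The genes lie on 3 chromosomes. In GRCh37, the build of the count files, AK4 spans chr1:65613232-65697828 on the plus strand and AK5 chr1:77747704-78025651 on the plus strand. AK1 (chr9:130628765-130639954), AK3 (chr9:4709556-4742043) and AK8 (chr9:135600965-135754164) are on the minus strand of the same chromosome, and AK7 spans chr14:96858465-96955764 on the plus strand. Promoters of the main contrast among them, the pair of matrix enzymes, are shown because AK4 rose in hypoxia in every line, whereas AK3 changed by no more than 0.09 on the log2 scale. The letters searched were ACGTG and GCGTG on both strands, the core of the element to which HIF binds. CACGTG reads the same on both strands and so counts as an ACGTG on each. Each sequence runs 5′ to 3′ on the strand of its gene from 250 bases before to 50 bases after a transcript start, is taken from RefSeq (GRCh38.p14) and matched GRCh37 exactly at 1 place. Capitals mark the letters searched, on either strand.

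AK4 first start (plus strand, GRCh37 chr1:65612985-65613284): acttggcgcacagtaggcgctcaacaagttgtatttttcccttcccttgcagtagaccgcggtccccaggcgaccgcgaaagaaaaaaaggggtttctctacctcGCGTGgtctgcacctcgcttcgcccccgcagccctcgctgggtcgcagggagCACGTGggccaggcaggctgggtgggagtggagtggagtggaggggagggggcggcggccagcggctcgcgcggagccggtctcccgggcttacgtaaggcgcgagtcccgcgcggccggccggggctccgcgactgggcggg
AK4 second start (plus strand, GRCh37 chr1:65613286-65613585): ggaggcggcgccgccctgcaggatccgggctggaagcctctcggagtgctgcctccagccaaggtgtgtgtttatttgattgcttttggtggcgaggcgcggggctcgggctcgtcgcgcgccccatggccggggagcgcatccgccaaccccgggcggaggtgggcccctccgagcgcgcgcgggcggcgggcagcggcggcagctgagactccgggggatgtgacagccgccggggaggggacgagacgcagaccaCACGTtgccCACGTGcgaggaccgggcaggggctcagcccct
AK3 first RefSeq start, 244 bases inside the annotated gene (minus strand, GRCh37 chr9:4741750-4742049): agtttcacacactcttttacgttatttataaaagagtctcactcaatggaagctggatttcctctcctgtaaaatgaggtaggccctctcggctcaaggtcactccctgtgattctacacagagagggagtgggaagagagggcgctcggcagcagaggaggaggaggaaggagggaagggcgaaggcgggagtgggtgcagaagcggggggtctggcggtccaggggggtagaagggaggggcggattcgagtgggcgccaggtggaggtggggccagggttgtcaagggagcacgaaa

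The window at the first AK4 start held GCGTG 145 bases upstream of the start and a CACGTG 93 bases upstream. That at the second start held ACGTG on the minus strand 8 bases downstream and another CACGTG 17 bases downstream. The AK3 window held neither motif, and nor did the window at the other AK3 start. All 6 genes matched RefSeq, with 13 windows in all. One or the other motif was in 4 of 4 windows of AK4, 0 of 2 of AK3, 1 of 2 of AK1, 2 of 2 of AK5, 1 of 1 of AK7 and 1 of 2 of AK8. Of 35116 promoters of the same length, 21.4% held ACGTG, 36.5% GCGTG, 48.4% either of them and 7.26% CACGTG. A match describes the letters only, and no binding was measured here.

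AK4 was the adenylate kinase that rose most on exposure to hypoxia in each cell line. In HKC-8 cells its level was 74.2, 66.1 and 66.6 CPM in the normoxic and 300, 306 and 289 CPM in the hypoxic samples. Every hypoxic sample thus lay far above every normoxic one. The mean went from 68.9 ± 4.54 to 298 ± 8.61 CPM (SD, n = 3). The log2 fold change was 2.12 (with a standard error, SE, of 0.08, and 4.34-fold), with an adjusted p of 1.80e-06 from edgeR's quasi-likelihood test with Benjamini-Hochberg adjustment over 13536 genes, as for all adjusted p-values of hypoxic change. By the size of its increase AK4 was number 142 among those genes. The counts behind these values were 5361 to 6185 in normoxia and 23858 to 29918 in hypoxia.

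RCC4 cells started from a higher level. AK4 stood there at 196, 184 and 193 CPM in normoxia and at 401, 412 and 403 CPM in hypoxia, again with no overlap. The rise from 191 ± 6.19 to 405 ± 5.74 CPM (SD, n = 3) was 2.13-fold, a log2 fold change of 1.09 (SE 0.03, adjusted p = 1.03e-17), and ranked number 233 of 12811 genes. HepG2 cells had the highest level in normoxia, at 293, 263 and 255 CPM, and also in hypoxia, at 454, 440 and 448 CPM. The groups did not overlap there either. The increase from 270 ± 20.1 to 447 ± 7.20 CPM (SD, n = 3) was 1.66-fold, with a log2 fold change of 0.73 (SE 0.06, adjusted p = 1.41e-06), and ranked number 1004 of 13623 genes.

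**Figure D1:**
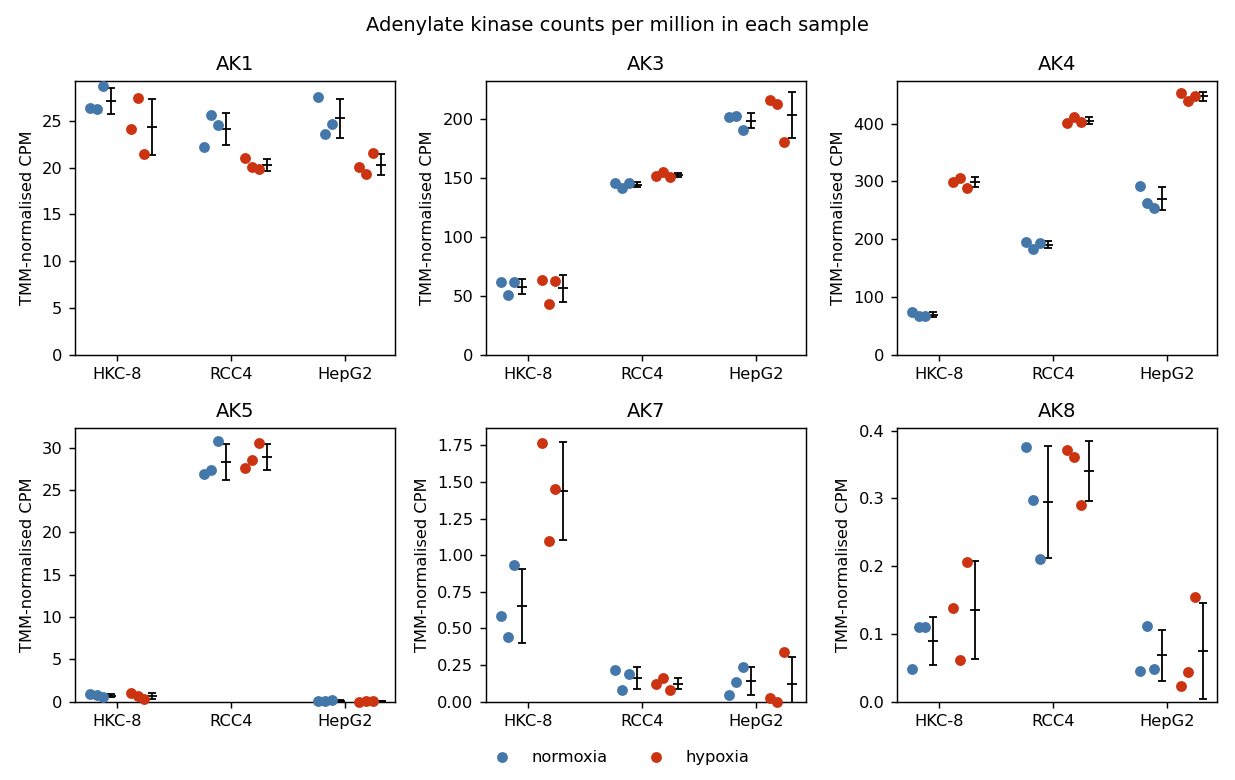
TMM-normalised CPM (vertical axes, linear, from 0, a scale of its own for each gene) of the 6 adenylate kinase genes in each sample of HKC-8, RCC4 and HepG2 cells, with normoxic samples in blue and hypoxic samples in red; black bars give the mean and SD of 3 replicates. The hypoxic AK4 samples lie above the normoxic ones in all 3 lines (289 to 306 CPM against 66.1 to 74.2 CPM in HKC-8 cells), and AK5 is high in RCC4 cells and at most 1.03 CPM in a sample of the other lines.

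The fold increase of AK4 was largest in the line with the lowest normoxic level. The difference in response was tested by a term for line by oxygen, in fits of 12 samples each. Between HKC-8 and HepG2 cells it was 1.39 on the log2 scale (SE 0.10, adjusted p = 6.88e-07). The response of HKC-8 exceeded that of RCC4 cells by 1.04 (SE 0.08, adjusted p = 4.21e-06), and the response of HepG2 minus that of RCC4 cells was -0.36 (SE 0.07, adjusted p = 0.00146). Of all genes tested, 9.30%, 15.2% and 22.6% were called in these 3 comparisons, in that order. The labelled exposure of RCC4 cells differs from that of the other lines, so that line and exposure cannot be told apart in the comparisons with RCC4, and the oxygen level in the HKC-8 titles leaves the same doubt for HKC-8 against HepG2 cells. Of the other members tested, 0 were called in these edgeR fits and in DESeq2. Before adjustment, AK7 alone passed 0.05 in edgeR, in HKC-8 against RCC4 cells (unadjusted value 0.0347, adjusted p = 0.136 over all genes tested). The mean AK4 level in HepG2 was 3.92 times that in HKC-8 cells in normoxia and 1.50 times in hypoxia, and in RCC4 it was 2.77 and 1.36 times that in HKC-8 cells.

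AK3, the other matrix enzyme, stayed close to its normoxic level. HKC-8 cells had 61.6, 50.1 and 61.5 CPM of AK3 in normoxia and 63.1, 42.7 and 62.8 CPM in hypoxia, where replicate 2 was the lowest sample of each group. The log2 fold change was -0.04 (SE 0.15, adjusted p = 0.893). HepG2 cells had 201, 202 and 191 CPM in normoxia and 216, 213 and 181 CPM in hypoxia, with overlapping groups and a log2 fold change of 0.04 (SE 0.07, adjusted p = 0.727). In RCC4 cells the values were 145, 141 and 145 CPM in normoxia and 152, 154 and 151 CPM in hypoxia. These groups did not overlap, and the log2 fold change of 0.09 (SE 0.03) passed the test narrowly (adjusted p = 0.0415). With library totals in place of TMM scaling the same change was 0.0044 (adjusted p = 0.925), and the call was also lost in 1 fit of all 18 samples (adjusted p = 0.671) and whichever single sample was left out (adjusted p = 0.0556 to 0.147).

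Because AK3 and AK4 share their compartment, their counts were also set against each other within each sample, where scaling cancels. Counts were not divided by transcript length, which is 6845 bases for AK4 and 4219 for AK3. A ratio above 1 therefore does not show that AK4 had more transcripts. Per kb of transcript, as given below, mean AK3 stood above mean AK4 in normoxia in each line. The ratio of AK4 to AK3 counts was 1.08 to 1.32 in normoxic and 4.60 to 7.17 in hypoxic HKC-8 cells. RCC4 samples had ratios of 1.30 to 1.35 in normoxia and 2.64 to 2.67 in hypoxia, and HepG2 samples had 1.30 to 1.45 and 2.06 to 2.48. The normoxic ranges of HKC-8 and HepG2 cells each overlapped that of RCC4 cells, and in hypoxia every HKC-8 sample lay above every sample of the other lines.

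AK1, the cytosolic enzyme, fell in RCC4 and HepG2 cells. RCC4 samples held 22.2, 25.6 and 24.5 CPM in normoxia and 21.05, 20.0 and 19.9 CPM in hypoxia, and the groups did not overlap. The mean went from 24.1 ± 1.73 to 20.3 ± 0.636 CPM (SD, n = 3), and AK1 had a log2 fold change of -0.24 (SE 0.06, adjusted p = 0.00343), which missed the threshold in the fit of all 18 samples (adjusted p = 0.0627). In HepG2 cells AK1 stood at 27.6, 23.6 and 24.7 CPM in normoxia against 20.1, 19.3 and 21.6 CPM in hypoxia, again without overlap. The log2 fold change was -0.32 (SE 0.08, adjusted p = 0.00843). HKC-8 cells had 26.4, 26.2 and 28.8 CPM in normoxia and 24.1, 27.5 and 21.5 CPM in hypoxia. These groups overlapped, and the log2 fold change of -0.15 (SE 0.11) did not pass the test (adjusted p = 0.354).

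AK7 and AK8, the genes known from ciliated tissues, had low counts. AK7 had 49, 36 and 85 counts in normoxic and 141, 107 and 120 in hypoxic HKC-8 samples, so that every hypoxic sample lay above every normoxic one. Its level went from 0.655 ± 0.253 to 1.44 ± 0.337 CPM (SD, n = 3), and the log2 fold change was 1.13 (SE 0.32, adjusted p = 0.0389). That call was lost in the fit of all 18 samples (adjusted p = 0.0649), with library totals only (adjusted p = 0.0511), and without normoxia replicate 1 (0.135), normoxia replicate 2 (0.113), hypoxia replicate 1 (0.147) or hypoxia replicate 3 (0.0931, all adjusted p). RCC4 and HepG2 samples had 0 to 13 counts of AK7, which was too few for it to be tested there. AK8 had 9 to 19 counts in normoxic and 14 to 18 in hypoxic RCC4 samples, with a log2 fold change of 0.20 (SE 0.44, adjusted p = 0.738). In the other lines it had 1 to 17 counts and was not tested, so that a change was not detectable at this depth. Of 16 genes of motile cilia on a fixed list, 7 were tested in HKC-8 cells, and 0 passed edgeR's test in either direction, also at an unadjusted p under 0.05. Of all genes tested in these cells, 20.4% were called. The 7 cilia genes had low levels and were too few to set their count apart from that share. Their median log2 fold change was 0.31.

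AK5 was counted mainly in RCC4 cells. It had 1315 to 1375 counts in normoxic and 1338 to 1475 in hypoxic RCC4 samples, at 28.3 ± 2.13 and 28.9 ± 1.499 CPM (SD, n = 3), and the groups overlapped. The hypoxic log2 fold change there was 0.04 (SE 0.06, adjusted p = 0.659). HKC-8 samples had 72, 66 and 46 counts in normoxia and 82, 65 and 28 in hypoxia, with a log2 fold change of -0.10 (SE 0.41, adjusted p = 0.888). HepG2 samples had 5, 3 and 7 counts in normoxia and 0, 3 and 4 in hypoxia, and AK5 was not tested in that line.

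**Figure D2:**
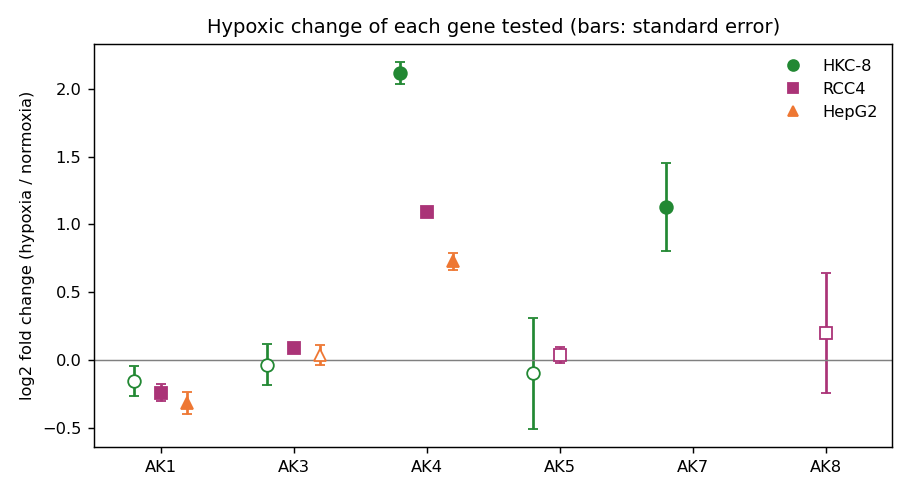
Log2 fold change of hypoxia over normoxia (vertical axis) of each adenylate kinase gene that passed the filter on low counts, in HKC-8 (circles), RCC4 (squares) and HepG2 cells (triangles), with bars of 1 SE; filled symbols passed the test and open symbols did not. AK4 is at 2.12, 1.09 and 0.73 in the 3 lines, and the AK1 and AK3 points lie between -0.32 and 0.09.

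Set against all genes, the number of members called was read with care, because calls were common. In HKC-8 cells 5 members were tested and 2 were higher in hypoxia (AK4 and AK7), where 20.4% of all genes tested were called 11.2% were higher and 9.12% lower. In RCC4 cells 5 were tested, of which 2 were higher (AK4 and AK3) and 1 lower (AK1), where 50.1% of all genes were called, 25.9% higher and 24.2% lower. In HepG2 cells 3 were tested, of which 1 was higher (AK4) and 1 lower (AK1), where 39.1% of all genes were called, 19.9% higher and 19.2% lower. Increases of at least 2-fold were rarer. HKC-8 cells had such a call for 3.96% of genes, RCC4 cells for 2.07% and HepG2 cells for 4.13%, and AK4 passed that size in HKC-8 and RCC4 cells. The replicate numbers paired the HKC-8 samples by the criterion given in the methods. When that number was fitted as a block, the calls in these cells went from 2757 to 5755 genes, and the same number of members, 2, with AK4 at an adjusted p of 1.34e-08 and AK7 at 0.00499.

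**Figure D3:**
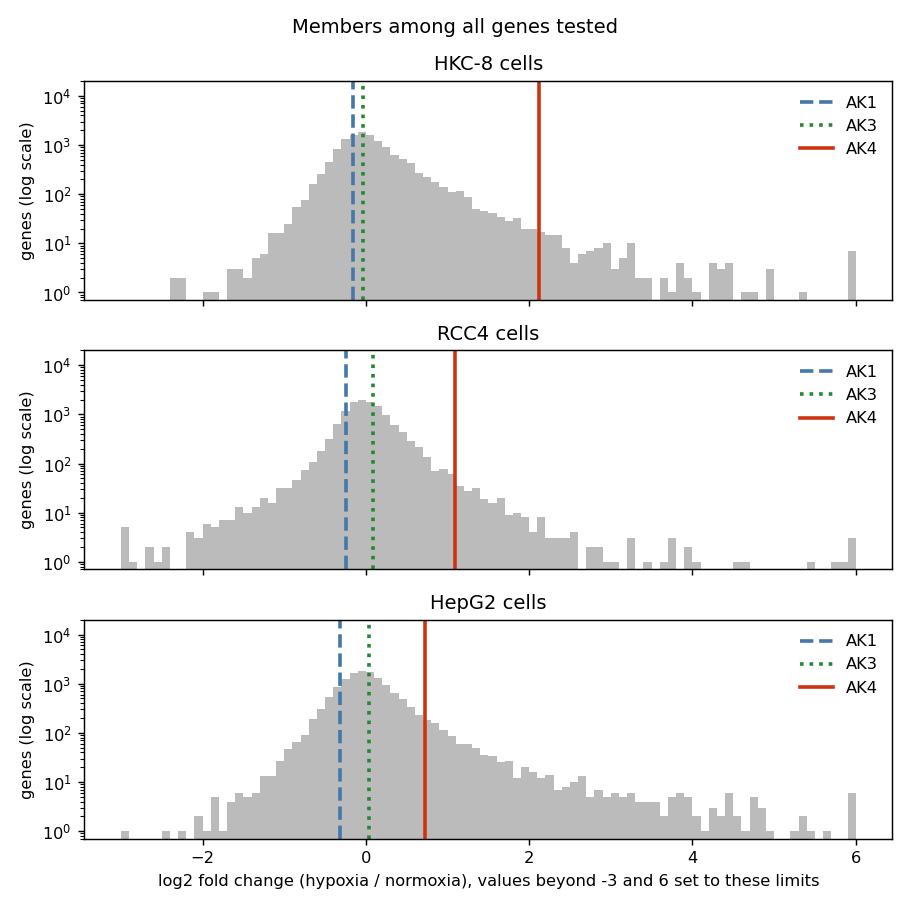
Number of genes tested (vertical axes, log scale) by log2 fold change of hypoxia over normoxia (horizontal axis, bins of equal width, values beyond the ends set to the end bins) in HKC-8, RCC4 and HepG2 cells, with lines at AK1 (dashed), AK3 (dotted) and AK4 (solid). AK4 lies in the right tail, at rank 142 of 13536 genes in HKC-8 and rank 1004 of 13623 in HepG2 cells, while AK1 and AK3 lie in the main mass of genes.

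The lines also differed in their normoxic make-up of adenylate kinases, compared in 1 fit of the 9 normoxic samples in which over 80% of all genes were called in each comparison (80.8% for RCC4 against HKC-8, 83.0% for HepG2 against HKC-8 and 83.3% for HepG2 against RCC4 cells). AK3 and AK4 followed the same order, with HepG2 highest and HKC-8 lowest. AK3 was higher in RCC4 than in HKC-8 cells by 1.33 on the log2 scale (SE 0.08, adjusted p = 1.98e-09) and higher in HepG2 than in RCC4 cells by 0.47 (SE 0.08, adjusted p = 7.53e-05). AK4 was higher by 1.48 (SE 0.07, adjusted p = 2.65e-10) and by 0.51 (SE 0.07, adjusted p = 1.45e-05) in the same comparisons. The median of all genes lay at 0.11 in HepG2 against RCC4 cells, so that these last differences are smaller relative to it. AK1 did not pass the test between any of the lines, with log2 differences of -0.16, -0.08 and 0.08.

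AK5 showed the widest span. It was 39.3-fold higher in RCC4 than in HKC-8 cells (log2 difference 5.30, SE 0.19, adjusted p = 8.26e-12), and lower in HepG2 than in RCC4 cells by a log2 difference of -7.91 (SE 0.26, adjusted p = 2.25e-12). HepG2 were also below HKC-8 cells (-2.61, SE 0.35, adjusted p = 7.82e-06). AK7 was lower in RCC4 than in HKC-8 cells (-2.01, SE 0.49, adjusted p = 0.00171) and lower in HepG2 than in HKC-8 cells (-2.21, SE 0.51, adjusted p = 0.00113, and -2.87 without HepG2 normoxia replicate 3), while RCC4 and HepG2, neighbours in that order, did not pass the test. AK8 was highest in RCC4 cells, by a log2 difference of 1.71 over HKC-8 cells (SE 0.46, adjusted p = 0.0033), with HepG2 minus RCC4 at -2.07 (SE 0.55, adjusted p = 0.00302, and -2.67 without HepG2 normoxia replicate 2), and the difference of HepG2 from HKC-8 cells, -0.36, did not pass the test. These last genes rest on few counts.

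To compare levels between genes, CPM were divided by the length of the Ensembl canonical transcript in kilobases. In normoxic HKC-8 cells AK3 (13.7 ± 1.56 CPM per kb, SD, n = 3), AK1 (12.4 ± 0.654) and AK4 (10.1 ± 0.663) were close together, and the ranges of AK3 and AK1 overlapped. In hypoxia AK4 stood at 43.6 ± 1.26 CPM per kb, above AK3 (13.3 ± 2.78) and AK1 (11.1 ± 1.37), whose ranges again overlapped. In RCC4 cells the order in normoxia was AK3 (34.1 ± 0.526), AK4 (27.9 ± 0.904), AK1 (11.0 ± 0.789) and AK5 (8.64 ± 0.650, or a mean of 4.08 when divided by the length of all its exons together), and AK4 came first in hypoxia (59.2 ± 0.838 against 36.1 ± 0.450 for AK3). In HepG2 cells AK3 (47.0 ± 1.51) was followed by AK4 (39.5 ± 2.94) and AK1 (11.5 ± 0.941) in normoxia, and AK4 came first in hypoxia at 65.3 ± 1.05. Of the per-length sum of the 6 genes, AK4 made up 27.5 ± 1.65% in normoxic and 63.4 ± 2.10% in hypoxic HKC-8 cells, 34.0 ± 0.865% and 52.1 ± 0.224% in RCC4 cells, and 40.2 ± 1.10% and 53.2 ± 1.84% in HepG2 cells (SD, n = 3).

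**Figure D4:**
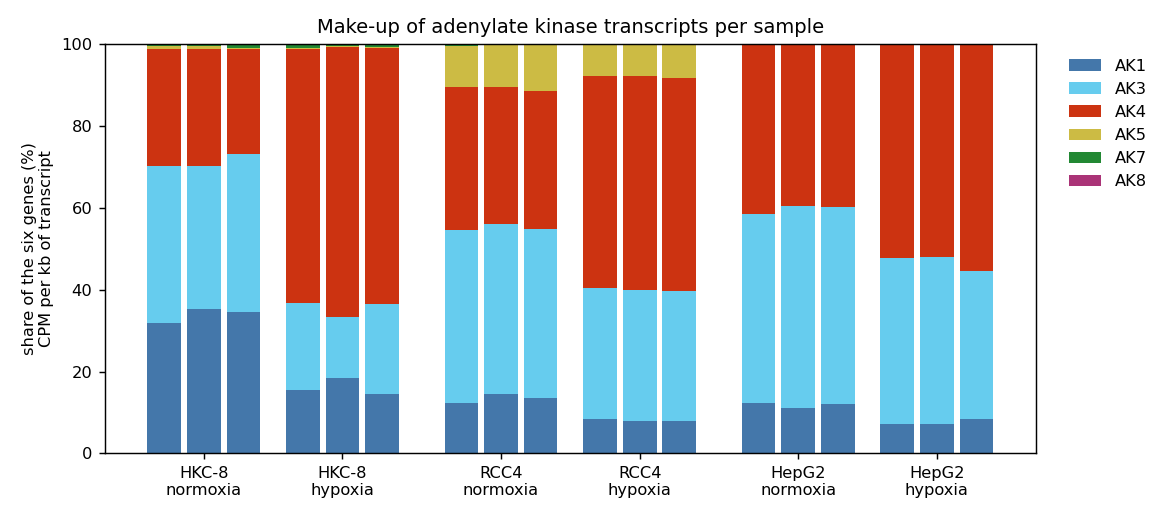
Share of each adenylate kinase gene (colours) in the sum of the 6 genes' CPM per kb of canonical transcript (vertical axis, %), as 1 stacked bar per sample, grouped by cell line and oxygen. The AK4 share is larger in every hypoxic sample than in the normoxic samples of its line, and AK5 has a visible share, 7.46% to 11.3%, in RCC4 cells.

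Some limits belong to single genes. Of the 50-base stretches of the canonical AK4 transcript, 15.9% occur exactly in genes named AK4P1 to AK4P6, and the authors discarded reads without a unique position before counting. How many AK4 reads this took was not tested. For AK3 that share was 0.0959%. Exons of other genes, of any type and on either strand, overlap 34.5% of the AK1 exon bases in the GENCODE annotation. The only protein-coding gene among them is on the same strand as AK1. For AK8, 9.7% of exon bases are overlapped in this way, and the only protein-coding gene there is SPACA9, on the other strand. The strand setting used in counting was not given in the sources used here. Whether reads in the overlap of AK8 and SPACA9 were left out or assigned by strand is therefore not known.

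By the pattern over the 18 samples, the genes most like AK4 were FAT4 (Pearson r = 0.980), SLC29A4 (0.980), CDK18 (0.977), FAM107B (0.976) and LRP1 (0.969), among 15307 genes compared after each gene was centred within each cell line. Among those most like AK1 were ACAA1 (0.901), SAE1 (0.901), TANGO2 (0.892) and COX5A (0.891), and most like AK3 were THAP5 (0.888), PNISR (0.885), COL4A5 (0.880), ZDHHC17 (0.871) and CCNG1 (0.864). Centring removes the differences between lines. Without it, r with AK3 was -0.439 for THAP5, -0.731 for PNISR and -0.809 for ZDHHC17, but 0.685 for COL4A5 and 0.744 for CCNG1. For the genes named with AK1 it was -0.211 to -0.100, and for those of AK4 0.615 to 0.848. All of these correlations describe samples that share libraries and treatment.

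Other genes of nucleotide and energy metabolism were counted from fixed lists. Their counts are to be read against the share of all genes called, 20.4% for HKC-8, 50.1% for RCC4 and 39.1% for HepG2 cells. A list of kinases of nucleosides and of other nucleoside monophosphates and diphosphates had 17 genes tested in each line. It included 1 that rose and 0 that fell in HKC-8 cells, 0 and 2 in RCC4 cells, and 0 and 4 in HepG2 cells. The median log2 fold change of the list was -0.06, -0.03 and -0.04 in the same order. At an unadjusted p under 0.05 in edgeR, the genes that rose and fell were 1 and 4, 1 and 4, and 1 and 5. Of the subunits of the AMP-activated protein kinase, 6 were tested, of which 2 rose and 1 fell in HKC-8, 3 rose and 1 fell in RCC4 (all genes 50.1% called), and 1 rose and 2 fell in HepG2 cells (39.1%), with 20.4% of all genes called in HKC-8 cells.

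Among 9 tested genes of AMP synthesis, salvage and deamination, 1 rose and 1 fell in HKC-8, 3 rose and 2 fell in RCC4, and 4 rose and 1 fell in HepG2 cells, beside 20.4%, 50.1% and 39.1% of all genes called. The RCC4 share is close to that of all genes. AMPD3, an AMP deaminase that removes the AMP adenylate kinases make, rose in RCC4 cells from 0.164 ± 0.0424 to 2.27 ± 0.244 CPM (SD, n = 3; log2 fold change 3.75, SE 0.31, adjusted p = 8.78e-10), from 5 to 10 counts per sample. It also rose in HKC-8 (log2 fold change 0.42, adjusted p = 0.0447) and HepG2 cells (0.62, adjusted p = 0.0210). Its normoxic means were higher there, at 7.33 CPM in HKC-8 and 4.46 CPM in HepG2 cells. ADSSL1, an adenylosuccinate synthase, rose in HepG2 cells from 1.04 ± 0.265 to 3.91 ± 0.545 CPM (log2 fold change 1.92, SE 0.21, adjusted p = 1.05e-05).

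Of the genes of the creatine system, which buffers ATP beside the adenylate kinases, 4 of 7 tested rose in HepG2 cells and 0 fell, also at an unadjusted p under 0.05 in edgeR, with a median log2 fold change of 1.35. Of all genes tested in HepG2 cells, 39.1% were called and 19.9% were higher. CKB, the cytosolic creatine kinase of brain type, rose from 95.9 ± 5.59 to 533 ± 26.5 CPM (SD, n = 3; log2 fold change 2.48, adjusted p = 6.94e-12), and SLC6A8, the creatine transporter, from 62.1 ± 3.32 to 391 ± 7.22 CPM (2.65, adjusted p = 3.06e-12). GATM, an enzyme of creatine synthesis, and CKMT2, a mitochondrial creatine kinase, rose at low levels, with log2 fold changes of 2.29 (adjusted p = 3.18e-05) and 1.35 (adjusted p = 0.000141). In HKC-8 cells 2 of 6 rose and 1 fell (20.4% of all genes called). The gene that fell, CKMT1B (log2 fold change -1.04, adjusted p = 0.0315), has a near-identical copy in CKMT1A and is uncertain. In RCC4 cells 1 of 3 rose, SLC6A8 by 0.29 (adjusted p = 6.87e-07), where 50.1% of all genes were called.

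A further list held genes that carry nucleotides across the mitochondrial membranes, and genes that make or use GTP or ATP in the matrix. Of these, 10 were tested in HKC-8 (1 rose, 1 fell), 10 in RCC4 (2 rose, 3 fell) and 9 in HepG2 cells (1 rose, 3 fell). These shares were close to the 20.4%, 50.1% and 39.1% of all genes called. PCK2, the matrix enzyme that uses GTP to make phosphoenolpyruvate, had 58.2 ± 26.7 CPM in normoxic and 206 ± 33.9 CPM in hypoxic HKC-8 cells (SD, n = 3; log2 fold change 1.82, SE 0.27, adjusted p = 0.00305), and had log2 fold changes of -0.08 and -0.10 without passing the test in RCC4 and HepG2 cells. Of the motile cilia genes, 5 were tested in RCC4 cells, where 2 rose and 1 fell (50.1% of all genes called), and 7 in HepG2 cells, where 0 rose and 1 fell (39.1%). In HepG2 cells the counts were also 0 and 1 at an unadjusted p under 0.05 in edgeR. DNAH11 rose (1.61, adjusted p = 2.05e-16), DNAH5 rose (0.47, adjusted p = 0.00474) and CCDC40 fell (-1.18, adjusted p = 0.0225) in RCC4 cells, and TPPP3 fell in HepG2 cells (-1.23, adjusted p = 0.0388). A reference list of 10 genes known to respond to hypoxia was higher in all 10 genes in HKC-8 and HepG2 cells and in the 8 tested in RCC4 cells, with medians of 2.05, 2.78 and 2.32 on the log2 scale, beside which AK4 stood at 2.12, 0.73 and 1.09.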

How the data were processed

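PolyA+ RNA of 18 samples was sequenced. The deposited values are raw counts per gene. According to the methods and processing notes of the study, the authors trimmed reads with Trim Galore 0.3.3, aligned them to GRCh37 with TopHat 2.0.8b and Bowtie 1.0.0, removed fragments that did not map uniquely with SAMtools 0.1.19, and counted reads on UCSC genes with HTSeq 0.5.4p3 in its intersection-strict mode. Genes with near-identical copies or overlapping neighbours are undercounted by these steps. Samples were grouped by their labels. From the counts, edgeR 4.0.16 in R 4.3.3 (filterByExpr, TMM, glmQLFit, glmQLFTest) was run on all genes for each line (6 samples), for pairs of lines with an interaction of line and oxygen (12 samples) and for the normoxic samples (9 samples), adjusted by the Benjamini-Hochberg method and called under 0.05. Standard errors are the log2 fold change over the square root of F. CPM were scaled by TMM over all samples. Correlations used log2 CPM with a prior count of 2.

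The members and lists were chosen with earlier results of these data known. All 6 members are named, together with the 5 genes most like AK1, AK3 and AK4, and the list genes called with a log2 fold change of 1 or more in size in any line; other list genes were counted, and marker genes are named for their role, and DNAH5 was added after its values were seen. Some genes that this rule or the lists hold are not reported here. Replicate numbers were taken as pairing where every same-numbered pair of samples correlated over 0.1 in its deviations from the group means. That held in HKC-8 cells (r = 0.109, 0.453 and 0.447), but not in RCC4 (mean r = 0.0126) or HepG2 cells (lowest r = 0.0617). No samples were identical, and replicates differed by 4.57 to 91.5 in chi-square per degree of freedom. Alternatives were DESeq2 1.42.0, its size factors in edgeR, dropping the low-count filter or asking for 10 counts in each sample, fitting all 18 samples together, a block for the replicate number, leaving samples out singly, and, added later, library totals without TMM. Promoter motifs were counted in RefSeq sequences, and gene positions come from GENCODE lifted to GRCh37. The fits were tested on simulated data. Figures were drawn with matplotlib 3.10.9 in Python 3.11.15.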

Additional observations from a re-analysis of the deposited data

Results flagged for a closer look

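The hypoxic change of AK4 differed between the cell lines by the test of the difference itself. It was greater in HKC-8 than in HepG2 cells by 1.39 on the log2 scale (adjusted p = 6.88e-07) and greater in HKC-8 than in RCC4 cells by 1.04 (adjusted p = 4.21e-06), and the HepG2 minus RCC4 difference was -0.36 (adjusted p = 0.00146). AK4 was higher in every hypoxic than in every normoxic sample of each line, so the lines differed in the size of the change and not in its sign. Over 19 alternatives each, the 3 differences ranged from 1.33 to 1.49, from 1.01 to 1.11 and from -0.40 to -0.30. Line, depth and exposure cannot be told apart in these differences, since the labelled exposure of RCC4 cells is another one and the titles of hypoxic HKC-8 samples give a lower oxygen level than their other labels.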

How the results depend on the processing

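The increase of AK4 kept its direction and its call in all 13 alternatives run in each line, with log2 fold changes of 2.09 to 2.17 for HKC-8, 1.01 to 1.11 for RCC4 and 0.63 to 0.78 for HepG2 cells, and so did its 3 differences between lines and its 3 normoxic comparisons. In 1 fit of all 18 samples the members called were 1 in HKC-8 and 1 in RCC4 cells, and the genes called 5013 in HKC-8 and 3286 in RCC4 cells, 2219 for HKC-8 against HepG2 and 1886 for HepG2 against RCC4 responses. Library totals without TMM, an alternative chosen after the data were examined, gave 1 member in HKC-8 cells, and the sign turned for AK5 in RCC4 (-0.046) and AK3 in HepG2 cells (-0.057), neither of which was called; it moved the median of all genes to -0.08 in RCC4, -0.10 in HepG2 cells and 0.10 for HKC-8 against HepG2 responses. The replicate block gave 5755 genes in HKC-8 cells, 3019 for HKC-8 against HepG2 and 4071 for HKC-8 against RCC4 responses, and changed no other call of a member. At least 10 counts in every sample left 2 members called in each normoxic comparison, since fewer genes were tested. Leaving out 1 sample gave 1 to 2 members in HKC-8 cells and for both differences of HKC-8 from another line (AK7 was the one added), 1013 to 3283 genes in HKC-8 cells (1013 without normoxia replicate 1) and 911 to 1890 for HKC-8 against HepG2 responses (911 without HepG2 hypoxia replicate 1). It turned the sign of uncalled changes of AK3 (-0.13 to 0.13) and AK5 (-0.52 to 0.22) in HKC-8, AK5 in RCC4 (-0.0050 to 0.096), AK3 in HepG2 (-0.011 to 0.12), and AK1 (-0.035 to 0.12) and AK7 (-0.85 to 0.17) in normoxic HepG2 against RCC4 cells. The cause was not tested. AK7 outside HKC-8, AK8 outside RCC4 and AK5 in HepG2 cells had too few counts to be tested for hypoxic change.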
